A study of Mus musculus with 6 samples.

Results

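The C2CD4 family genes C2cd4a, C2cd4b, C2cd4c and C2cd4d were followed in RNA from sorted retinal vascular endothelial cells (VECs). The members were found by gene name, and all 4 were among the 55487 genes of the deposited table. The study asked which transcripts of retinal VECs differ when the clock gene Bmal1 is deleted there. Cells came from mice at postnatal day (P) 7.5, in 3 Bmal1;CKO libraries (Bmal1 FL/FL;tdTomato FL/+;Pdgf-icreER) and 3 control libraries (tdTomato FL/+;Pdgf-icreER). Both groups carried the Cre transgene and the tdTomato reporter, and tamoxifen was given to both between P0.5 and P2.5. The Pdgf-icreER transgene drives a tamoxifen-dependent Cre and GFP in endothelial cells, and cells positive for GFP and tdTomato were collected by FACS. The controls carried no floxed Bmal1 allele. Column names give a genotype but could not be matched to single animals, so the libraries are called control libraries 1 to 3 and Bmal1;CKO libraries 4 to 6. The family was chosen for its Bmal1;CKO and control values, so the differences between these groups in its members are a description, and no test of them is given.

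C2CD4 proteins are small proteins with a single C2 domain, a fold that in many other proteins binds calcium and membrane lipids. C2CD4A and C2CD4B were first described as nuclear factors that inflammatory cytokines induce in endothelial cells, and they have been linked to cell architecture and adhesion. The human C2CD4A and C2CD4B genes lie beside VPS13C in a region associated with type 2 diabetes, and much of what is known of them comes from pancreatic islets. C2CD4C and C2CD4D are less studied. BMAL1 works as a heterodimer with CLOCK, which binds the E-box CACGTG and related sequences in the promoters of clock-controlled genes.

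In GRCm38, C2cd4b (ENSMUSG00000091956) lies on the plus strand at chr9:67759437-67760930 and C2cd4a (ENSMUSG00000047990) on the minus strand at chr9:67830489-67832330, with 69558 bases between them. C2cd4c (ENSMUSG00000045912) lies at chr10:79606854-79614025 on the minus strand, and C2cd4d (ENSMUSG00000091648) at chr3:94362438-94364566 on the plus strand. Each gene has 2 exon blocks in GENCODE M21. The coding sequences of C2cd4a and C2cd4b, of 1002 and 1020 bases, were identical at 83.7% of their 983 aligned bases. The other pairs of members were identical at 63.6% to 70.2% of theirs. C2cd4a and C2cd4b are thus the closest pair in the family and the only pair that shared stretches of 50 bases. These made up 7.95% of the 50-base windows of C2cd4a and 8.37% of those of C2cd4b.

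The 250 bases upstream of the starts used in a RefSeq promoter table are shown for C2cd4b, C2cd4a and C2cd4d, the members that passed the filter on low values, because BMAL1 acts through promoter E-boxes. The sequences are from RefSeq (GRCm38.p6) and run 5′ to 3′ on the strand of the gene. Capitals mark matches to the E-box CACGTG, to its variant CACGTT and to TATAA of the TATA box, all searched on both strands. The start of C2cd4d used there lies inside its GENCODE span, which begins at 94362438, so the last bases of that window are within the gene. RefSeq's span of C2cd4b (chr9:67716224-67760933) begins far upstream of the start used here, which is the GENCODE start, and sequence at that other end was not searched. The windows are chr9:67759187-67759436 (plus strand) for C2cd4b, chr9:67832331-67832580 (minus strand) for C2cd4a and chr3:94362194-94362443 (plus strand) for C2cd4d.
C2cd4b: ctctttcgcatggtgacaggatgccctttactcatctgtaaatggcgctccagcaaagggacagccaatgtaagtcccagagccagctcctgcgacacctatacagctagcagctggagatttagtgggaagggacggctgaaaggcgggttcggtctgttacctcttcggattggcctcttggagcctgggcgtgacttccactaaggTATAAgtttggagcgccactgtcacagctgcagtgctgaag
C2cd4a: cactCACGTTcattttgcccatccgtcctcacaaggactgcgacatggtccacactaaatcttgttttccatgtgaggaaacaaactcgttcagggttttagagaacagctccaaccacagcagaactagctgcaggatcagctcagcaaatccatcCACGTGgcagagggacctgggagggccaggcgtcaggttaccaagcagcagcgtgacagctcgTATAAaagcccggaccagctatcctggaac
C2cd4d: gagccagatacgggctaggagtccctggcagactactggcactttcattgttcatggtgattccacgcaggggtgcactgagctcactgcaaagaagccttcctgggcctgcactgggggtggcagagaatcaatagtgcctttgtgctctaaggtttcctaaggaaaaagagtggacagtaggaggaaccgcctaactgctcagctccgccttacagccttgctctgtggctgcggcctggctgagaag
The C2cd4a window held CACGTG at 93 to 88 bases and CACGTT at 246 to 241 bases upstream of the start, and TATAA at 30 to 26 bases. The C2cd4b window held TATAA at 41 to 37 bases upstream and neither of the other 2 motifs. None of the 3 was in the C2cd4d window. Of 32851 mouse promoter windows of this length, 6.02% held CACGTG, 3.85% held CACGTT and 22.8% held TATAA. A match is a description of the letters, and binding was not measured. The promoter window of C2cd4b lies inside the span of an antisense gene described below, M5C1000I18Rik.

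The libraries held 71145068 to 104017800 reads on genes, as recovered from the normalized counts, and the size factors inferred from those counts ran from 0.711 to 1.40. Control library 1 stood apart, since 2428 of the 20459 tested genes (11.9%) were at 0 there, against 90 to 881 in the other libraries. Of those 2428 genes, 945 had at least 10 reads in each of the other 5 libraries. The summed normalized count of 14 endothelial markers was 198023 to 418107 in control and 122434 to 254688 in Bmal1;CKO, and Cldn5, a tight junction protein of endothelial cells, was the highest of them. The sum of 9 microglial markers, led by the complement gene C1qb, was larger, at 1386180 to 4103350 in control and 2013410 to 3985840 in Bmal1;CKO. Of the endothelial markers 13 or 14 had at least 10 reads in each library, and Slco1a4 was at 0 in control library 3, while all 9 microglial markers had them in every library. Summed rod markers were at 769800 to 1021480 in control and 503953 to 933775 in Bmal1;CKO, and Müller glia markers at 97184 to 100518 and 95381 to 137283. Pericyte markers summed to 2638 to 49143 in control and 4432 to 8972 in Bmal1;CKO, inner retinal neuron markers to 7181 to 14487 and 5972 to 12383, and erythroid markers to 1257 to 19008 and 1438 to 9934. Arntl, the gene that encodes BMAL1, had normalized counts of 1700, 3489 and 2928 in control and 1779, 2747 and 2415 in Bmal1;CKO. These overlapped, with a log2 fold change of -0.19 (SE 0.36, limma adjusted p = 0.924), and reads on the floxed exon were not analysed here. By droplet digital PCR in sorted endothelial cells of the same genotypes, the paper reported a significant loss of Arntl transcript.

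C2cd4b was higher in every Bmal1;CKO library than in any control library. Its normalized count was 199, 556 and 408 in control libraries 1 to 3. It was 1750, 1539 and 1083 in Bmal1;CKO libraries 4 to 6. The groups did not overlap, and the lowest Bmal1;CKO library was 1.95 times the highest control library. The means were 388 ± 179 in control and 1457 ± 341 in Bmal1;CKO (SD, n = 3 each), a ratio of 3.76. The log2 fold change on the log2(normalized count + 1) scale was 2.00 (SE 0.50). C2cd4b was the only one of the 4 members whose groups did not overlap. Of all tested genes 11.2% did not overlap, 6.62% being higher and 4.54% lower in Bmal1;CKO, and since the family was chosen on this contrast nothing is read from the count. By log2 fold change C2cd4b ranked 1898 from the highest of 20459 genes. The paper took C2CD4B from its list of significant genes for qPCR and found no significant change. That qPCR used endothelial cells enriched with CD31 beads, not the sorted cells of these libraries. In bulk samples, a change in the number of cells of a type and a change in RNA per cell cannot be told apart.

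**Figure D1:**
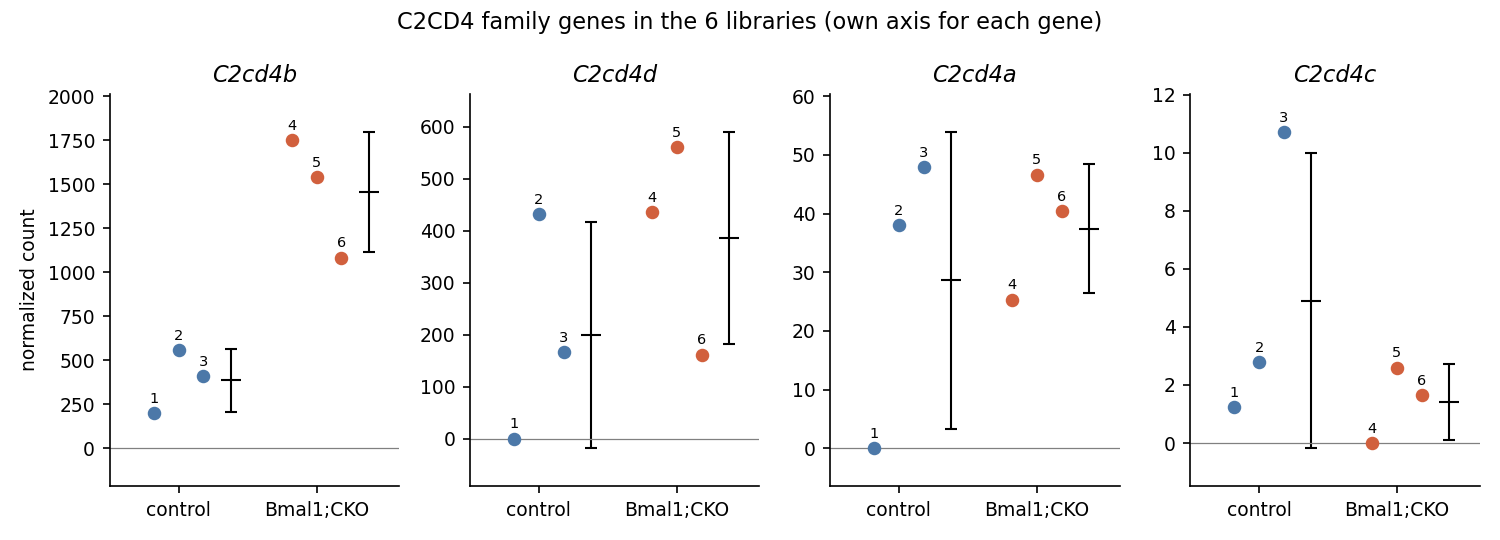
Normalized count of each C2CD4 gene in the 3 control and 3 Bmal1;CKO libraries, with 1 numbered point per library and bars for the group mean ± SD, on an axis of its own for each gene. C2cd4b lies at 199 to 556 in control and 1083 to 1750 in Bmal1;CKO, while the groups of the other 3 members overlap.

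An antisense gene limits what the C2cd4b count measures. The lincRNA M5C1000I18Rik (ENSMUSG00000055125) lies on the minus strand at chr9:67758712-67760230 and covers 627 of the 1327 exonic bases of C2cd4b. The library kits used do not mark strand, so reads from the shared bases cannot be told apart. Of the 50-base windows of C2cd4b, 531 of 1278 (41.5%) lie in the exons of both genes. M5C1000I18Rik had normalized counts of 0, 360 and 277 in control and 278, 804 and 507 in Bmal1;CKO. These groups overlapped, and its log2 fold change was 3.39 (SE 2.13, limma adjusted p = 0.883). The value of 0 in control library 1 enters that fold change. Its means were 212 in control and 530 in Bmal1;CKO. How the counting treated reads on the shared bases is not given, so either count, and their sum, may leave such reads out. The sum of both genes was 199, 916 and 684 in control and 2028, 2343 and 1591 in Bmal1;CKO. The sums did not overlap, with a ratio of means of 3.31, and they contain the C2cd4b values on which the family was chosen.

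C2cd4b was also set against the marker genes of each cell type. These ratios carry the C2cd4b values on which the family was chosen, so they describe the libraries and add no support to the difference. Per 1000 summed endothelial marker counts it was 0.477 to 2.47 in control and 4.25 to 12.6 in Bmal1;CKO. Per 1000 summed microglial marker counts it was 0.0486 to 0.401 in control and 0.439 to 0.567 in Bmal1;CKO, so the gap between the groups was narrow on that scale. Against the summed markers the groups did not overlap for 7 of 7 lists. Against the median marker of a list they did not overlap for 4 of 7 lists and overlapped for microglia, pericytes and inner retinal neurons. For microglia that ratio reached 0.01004 in control, above the 0.00917 of the lowest Bmal1;CKO library. The part of cell composition in the C2cd4b difference was not tested.

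**Figure D2:**
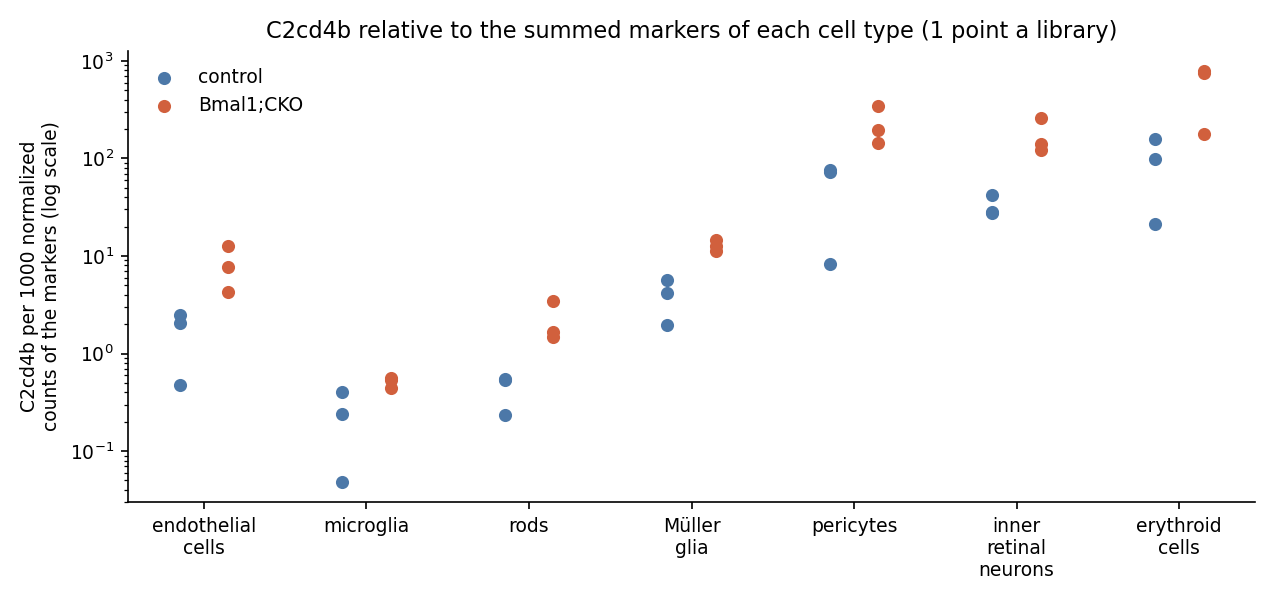
C2cd4b normalized count per 1000 summed marker counts, for each marker list and library, on a log axis. For 7 of 7 lists the 3 Bmal1;CKO points lie above the 3 control points, with the narrowest gaps for microglia (0.401 against 0.439) and erythroid cells (159 against 176), while ratios to the median marker, not plotted, overlap for 3 lists.

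C2cd4d did not separate the groups. Its normalized count was 0, 432 and 166 in control and 436, 561 and 161 in Bmal1;CKO. The lowest Bmal1;CKO library lay below 2 of the 3 control libraries, and control library 1 had no read. The means were 199 ± 218 and 386 ± 204 (SD, n = 3 each), a ratio of 1.94. The log2 fold change was 3.03 (SE 2.12), and 0.34 without control library 1.

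C2cd4a, the close relative of C2cd4b on the same chromosome, also overlapped between the groups. Its normalized count was 0, 38.05 and 47.9 in control and 25.3, 46.6 and 40.4 in Bmal1;CKO. The highest library was a control. The means were 28.6 ± 25.3 and 37.4 ± 10.96 (SD, n = 3 each), a ratio of 1.31. The log2 fold change of 1.59 (SE 1.64) rested on control library 1, without which it was -0.23. Both C2cd4a and C2cd4d were among the 945 genes at 0 in that library with at least 10 reads in each of the others.

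C2cd4c was at the limit of detection. It had 1, 3 and 15 reads in control libraries 1 to 3 and 0, 3 and 2 reads in Bmal1;CKO libraries 4 to 6. A count of 0 allows up to 3 reads, a limit that covers counting error only, and 5 of the 6 libraries were at or under it. C2cd4c did not pass the filter of at least 10 reads in at least 3 libraries, no fold change is given, and a difference was not detectable at this depth.

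**Figure D3:**
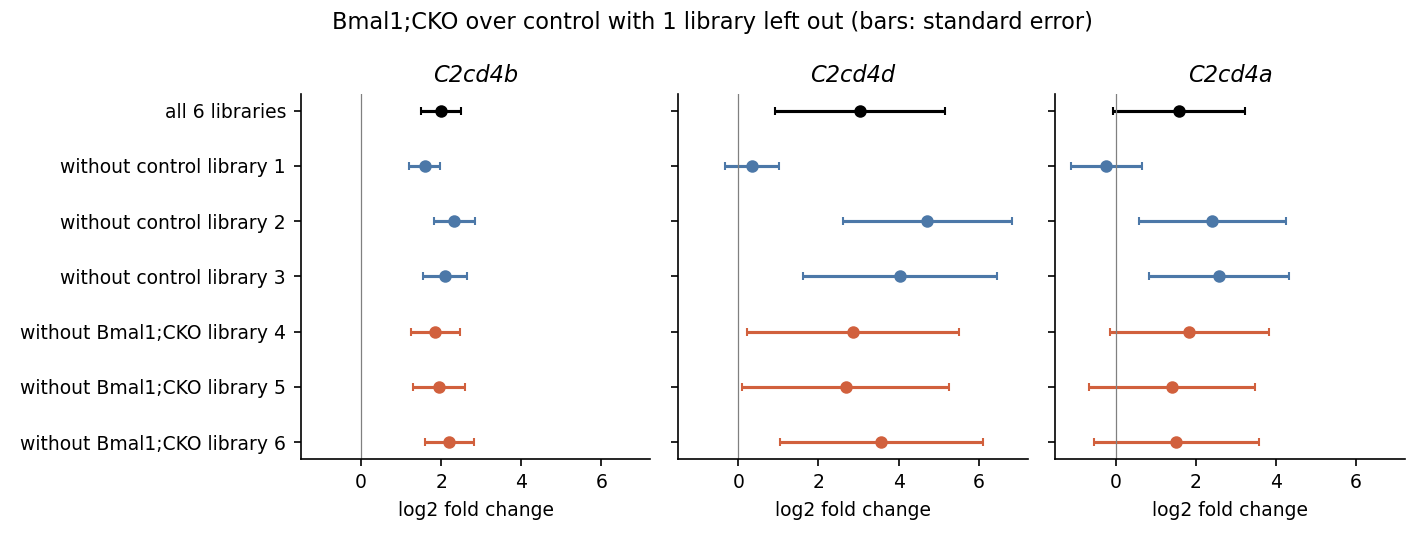
Log2 fold change (Bmal1;CKO over control, log2(normalized count + 1)) of the 3 members that passed the filter, with all libraries and with each library left out, with bars for the standard error. C2cd4b stays between 1.58 and 2.32, C2cd4d runs from 0.34 to 4.72 and C2cd4a from -0.23 to 2.58.

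Per length, C2cd4b was the highest member in 6 of 6 libraries. In normalized counts per kb of exon it reached 150 to 419 in control and 816 to 1318 in Bmal1;CKO. C2cd4d followed with 0 to 222 and 82.9 to 288, then C2cd4a with 0 to 34.3 and 18.1 to 33.4, and C2cd4c with 0.182 to 1.59 and 0 to 0.384. The order C2cd4b, C2cd4d, C2cd4a, C2cd4c held in 5 of 6 libraries, the exception being control library 1, where C2cd4a and C2cd4d had no read. In Bmal1;CKO the ranges of neighbours in this order did not overlap, while in control each overlapped with the next. The overlaps in control came from control library 1. In control libraries 2 and 3 the per-kb levels were 307 to 419 for C2cd4b, 85.5 to 222 for C2cd4d, 27.3 to 34.3 for C2cd4a and 0.412 to 1.59 for C2cd4c, with no overlap. Set against all tested genes, the per-kb level of C2cd4b exceeded 47.4% to 64.6% of them in control and 75.5% to 81.2% in Bmal1;CKO. C2cd4b held 54.1% to 99.4% of the reads of the family in control and 71.6% to 84.2% in Bmal1;CKO, where the share of 99.4% was that of control library 1.

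The genes most like each member were found by Pearson's r over the 6 libraries on the log2(normalized count + 1) scale, as a description. For C2cd4b these were Sox3 (r = 0.996), Ero1lb (0.993), A230052G05Rik (0.990), Hif3a (0.989) and Gm40787 (0.987). A230052G05Rik, Hif3a and Gm40787 passed the filter on low values only through the Bmal1;CKO libraries, in which they are high. Nothing is read from their coefficients. In all, 64 genes reached 0.95 with C2cd4b. For C2cd4a the genes most like it were 1700030J22Rik, Zfp189, Gm43461, Gm6685 and Ttc30a1, and 1479 genes reached 0.95. For C2cd4d they were Tmem92, Zfp951, Paqr3, Gm5468 and Gm12405, and 995 genes did so. C2cd4a and C2cd4d share the value of 0 in control library 1, and r between them was 0.955. Between C2cd4b and C2cd4a it was 0.680, and between C2cd4b and C2cd4d 0.795. All of these coefficients share the same 6 libraries. The 5 genes named for C2cd4b were, like it, higher in Bmal1;CKO without overlap. The 5 named for C2cd4a and the 5 for C2cd4d overlapped between the groups and had at most 7 reads in control library 1. Their coefficients without that library were not computed.

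The genes around the members were compared next. Within 1 Mb of C2cd4b, 14 of 33 other genes were tested, of which 5 had a positive and 9 a negative log2 fold change, with a median of -0.20 against 0.11 over all tested genes. None of the 14 had an FDR or an unadjusted p under 0.05 in limma-trend, where 0.0% of all tested genes reached the FDR and 4.92% the unadjusted p (3.17% higher and 1.75% lower in Bmal1;CKO). By edgeR 0 and by DESeq2 2 of the 14 had an unadjusted p under 0.05, against 777 and 1216 of all 20459 tested genes. Of the 14, 0 reached the FDR by either. Vps13c, a lipid transfer protein gene whose near end lies 79.5 kb from C2cd4b and 8.07 kb from C2cd4a, had normalized counts of 229, 220 and 110 in control and 380, 306 and 273 in Bmal1;CKO. Its groups did not overlap, with a log2 fold change of 0.83 (SE 0.60, limma adjusted p = 0.883). On the other side of C2cd4b the nearest tested gene was the pseudogene Gm7787, at 10.7 kb, with a log2 fold change of -0.31 (SE 0.66, limma adjusted p = 0.931). Tln2, which encodes the adhesion adaptor talin 2, was also higher without overlap, and Rab8b, Tpm1 and Aph1b were lower without overlap. Those 4 genes were chosen after their values were seen. With Vps13c, 2 of the 14 were higher and 3 lower without overlap, against 6.62% and 4.54% of all tested genes. Nothing is read from these counts.

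**Figure D4:**
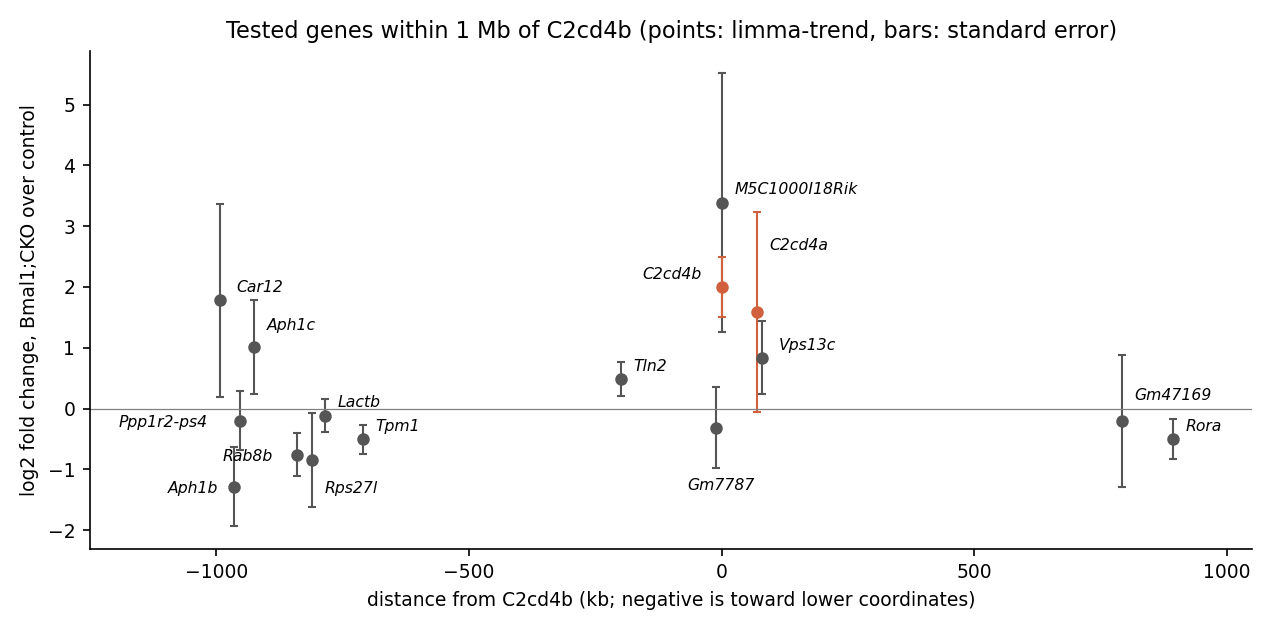
Log2 fold change (Bmal1;CKO over control) with its standard error for the tested genes within 1 Mb of C2cd4b, against their distance from it in kb. C2cd4b lies at 2.00 and C2cd4a at 1.59 (orange), and the antisense gene M5C1000I18Rik has the highest value, 3.39, with a standard error of 2.13. C2cd4a and M5C1000I18Rik had no read in control library 1, and C2cd4a was at -0.23 without that library.

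Within 1 Mb of C2cd4c, 66 of 111 genes were tested and 2 (3.03%) had an unadjusted p under 0.05. These were Med16, a Mediator subunit, with a log2 fold change of 0.71 (SE 0.28), and Plpp2, a lipid phosphatase, with -0.65 (SE 0.26). The nearest tested genes to C2cd4c, Shc2 at 4.03 kb and Mier2 at 51.7 kb, overlapped between the groups. Within 1 Mb of C2cd4d, 48 of 125 genes were tested and 5 (10.4%) had an unadjusted p under 0.05. Bnipl, Anxa9, A730011C13Rik and Zfp687 were higher in Bmal1;CKO by that test, and S100a11, a calcium-binding S100 protein gene, was lower with a log2 fold change of -1.62 (SE 0.62). Bnipl passed the filter on low values only through the Bmal1;CKO libraries, in which it is high, so its place in the count of 5 follows from the filter in part. A730011C13Rik is annotated as antisense, and its reads cannot be told apart from those of a gene on the other strand. Bnipl had no read in control and normalized counts of 39.4, 13.8 and 31.3 in Bmal1;CKO. The nearest tested gene to C2cd4d was Gm36070 at 1.596 kb, and its groups overlapped. None of the genes around any member reached an FDR of 0.05 by limma, edgeR or DESeq2. Over the 128 tested genes near the members, 7 (5.47%, Bnipl among them) had an unadjusted p under 0.05, 5 of them higher and 2 lower. Over all tested genes the share was 4.92%.

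Other genes with C2 domains and genes of the cytokine response, the setting in which C2CD4A and C2CD4B were described, were taken as lists. Of 44 other C2 domain genes 36 were tested, with 21 positive and 15 negative log2 fold changes and a median of 0.21. Over all tested genes 11570 were positive and 8889 negative, with a median of 0.11. An unadjusted p under 0.05 in limma-trend was reached by 2 of the other C2 domain genes (5.56%), against 4.92% of all tested genes. Both were synaptotagmins, a family of vesicle proteins. Syt15 had normalized counts of 0, 2.78 and 0 in control and 50.6, 168 and 38.7 in Bmal1;CKO (limma adjusted p = 0.825). Syt15 passed the filter only through the Bmal1;CKO libraries, in which it is high, so nothing is read from the count of 2. Syt17 had 1.23, 125 and 17.9 in control and 512, 402 and 186 in Bmal1;CKO (limma adjusted p = 0.883). The groups of both did not overlap, and Esyt2, a membrane tether named after its values were seen, was the 1 gene of the list that was lower without overlap. Of all tested genes 6.62% were higher and 4.54% lower without overlap. Of 26 cytokine response genes 21 were tested, with 18 positive and 3 negative log2 fold changes. Their median was 0.67, against 0.11 over all tested genes. None of the 21 had an unadjusted p under 0.05 by limma-trend, edgeR or DESeq2, and none reached the FDR. The smallest p belonged to Nfkbiz, an NF-kB cofactor, with a log2 fold change of 0.67 (SE 0.37, limma adjusted p = 0.883), and to Tnfaip3, an NF-kB inhibitor, with 1.38 (SE 0.94, limma adjusted p = 0.883). Without control library 1, 5 of the cytokine response genes had an unadjusted p under 0.05. In that setting the count over all tested genes rose as well, to 1769 from 1007 with all libraries. The count of cytokine response genes stayed at 0 in 11 of the alternative settings. It was 1 without control library 3 and 1 without Bmal1;CKO library 4.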

How the data were processed

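RNA from sorted cells was amplified with the Smart v4 kit, made into Nextera XT libraries and sequenced by the authors. The submitters' processing notes name FastQC, Trimmomatic, featureCounts and DESeq2, and the paper names Bowtie and mm10 (GRCm38). Versions and the use of strand in counting are not given in the sources used here. The deposited values are a signal, read here as the count divided by the library's DESeq2 size factor. That factor was inferred as the inverse of the smallest nonzero value of the library. The table also holds the authors' own fold changes and p-values, which were not used. Multiplying by the size factor gave whole reads for 100% of values (tolerance 0.01).

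The unit differed from the raw counts assumed in the design, so limma-trend (limma 3.58.1, R 4.3.3) was fitted to log2(normalized count + 1) for 20459 genes (10 or more reads in 3 or more libraries), with genotype as the only term and Benjamini-Hochberg adjustment. The fit was tested on simulated data. Alternatives were a pseudocount of 0.5 or of 10, TMM-scaled log2 CPM, limma-voom, edgeR 4.0.16 and DESeq2 1.42.0 on the recovered reads, other filters, and each library left out. The members and lists were chosen with earlier results of these data known. Genes named are the members, list genes and genes within 1 Mb with an unadjusted p under 0.05 (for a list with none, the 2 of smallest p), the nearest tested neighbours, the 5 genes most like each member, the highest marker of a list and Arntl. Not every gene this rule names is reported here. Columns could not be matched to single animals, and p-values measure the spread between these libraries.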

Additional observations from a re-analysis of the deposited data

How the results depend on the processing

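C2cd4b kept its direction in all 14 alternatives, at 1.90 to 2.00 in log2 fold change across the other settings and 1.58 to 2.32 with each library left out. Because its groups did not overlap, leaving out a library could not reverse that direction. The family was chosen on this contrast, so these values describe the gene and add no support to the difference. C2cd4d kept its direction too, at 0.95 (edgeR) to 3.37 and 0.34 to 4.72 with a library left out. C2cd4a ran from 0.38 (edgeR) to 1.91, and from -0.23 to 2.58 with a library left out, the negative value being the one without control library 1. C2cd4a and C2cd4d were not tested with at least 10 reads in every library. Genes at an FDR under 0.05 numbered 0 in limma-trend (1007 at an unadjusted p under 0.05) and 0 in edgeR (777), 67 by DESeq2, 1 with at least 1 read in total, 1 with at least 10 reads in every library, and 0 to 6 with a library left out. Genes at an unadjusted p under 0.05 numbered 444 to 2444 with a library left out, with 1769 without control library 1, 2444 without control library 3, 472 without Bmal1;CKO library 4 and 444 without library 5. Of the 1007 calls of limma-trend with all libraries 64.3% were higher in Bmal1;CKO, against 50.1% by edgeR and 43.8% by DESeq2. The limma-trend log2 fold change had a median over tested genes of 0.11, against -0.03 by either of those tools. With a library left out, the cytokine response genes at an unadjusted p under 0.05 numbered 0 to 5, the other C2 domain genes 1 to 6 and the genes within 1 Mb of a member 1 to 16, the highest counts being without control library 1 (5 and 6) and control library 3 (16), and the lowest count of neighbours without Bmal1;CKO library 6. The other C2 domain genes numbered 1 by edgeR and 0 with at least 10 reads in every library, and the genes within 1 Mb 4 by edgeR. The cause was not tested. No paired analysis was possible because the columns carry no number that matches the replicate numbers of the samples.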
